A study of Mus musculus with 12 samples.

Results

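The genes described here encode the subunits of the receptors for glutamate and of the ionotropic receptors for GABA. They were found as the probe sets (groups of short probes against one transcript) whose single annotated symbol belongs to the AMPA, kainate or NMDA families (Gria, Grik and Grin followed by a digit), to the metabotropic glutamate receptors (Grm) or to the Gabr family. The rule used symbols and no measured difference, and gave 74 of the 45101 probe sets and 36 of the 18194 genes, 21 for glutamate and 15 for GABA. Each gene was read from the probe set with the highest mean signal over the 12 arrays. Family members that no probe set names alone were not analysed here.

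Glutamate is the main excitatory transmitter of the brain and GABA the main inhibitory one. AMPA, kainate and NMDA receptors are ion channels assembled from several subunits that open when glutamate binds, while metabotropic receptors act through G proteins. GABA-A receptors are chloride channels, commonly built from alpha, beta and gamma subunits. Neural progenitors and glia also carry some of these receptors, before or without synapses.

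The study, on directly induced neural stem cells, measured total RNA of 12 mouse cultures with Affymetrix arrays. Neurospheres are floating aggregates enriched in neural stem and progenitor cells. The reference culture, with 1 array, was grown from the ganglionic eminence (GE, the embryonic source of many inhibitory neurons and oligodendrocytes) and is titled embryonic day 14. Adult skin fibroblasts gave 1 array, and pluripotent cells gave 1 array of the iPS line 38C2 and 1 of the ES line EB3. Each of these lines was also measured as primary and as secondary neurospheres, 1 array each. The fibroblast-derived neurospheres had 4 arrays: adult replicate 1 grown with EGF and cAMP, adult replicate 2 with LIF, embryonic replicate 3 with LIF, and embryonic replicate 4 with LIF and cAMP. All neurospheres were kept in a medium named MHM, and the strain was C57BL/6 apart from the ES and iPS cells. The labels used here give no age for the adult cells and do not say how fibroblasts were converted or whether arrays came from repeat cultures. The embryonic fibroblasts themselves were not analysed here. The paired arrays differ in line or medium, so a p-value reflects nothing beyond the spread between these arrays, which may be technical, and the single GE and fibroblast arrays are assumed to vary like the pairs.

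The signal is a linear intensity scaled so that the trimmed mean of each array is 100. Marker lists separated the arrays in ways that bear on the receptors. Of 6 neural stem cell markers on the array, 4 to 6 reached a signal of 20 on the fibroblast-derived arrays, with a sum of 804 to 2258, against 6 of 6 and 8956 to 15917 on the other neurosphere arrays. This list summed to 3508 and 3539 in iPS and ES cells, mostly as Sox2 (3353 and 3418). Sox2 was 85.6, 791, 1826 and 2092 in fibroblast-derived replicates 1 to 4. Fabp7 was 48.1 to 518 there, against 5037 to 7197 on the other neurosphere arrays. Pluripotency markers summed to 2461 to 11451 in fibroblast-derived neurospheres, to 18638 and 18783 in pluripotent cells, and to 58.1 and 7675 in iPS- and ES-derived primary neurospheres. The 6 fibroblast markers summed to 26063 in fibroblasts and to 331, 2233, 2025 and 2013 in fibroblast-derived replicates 1 to 4. They summed to 2495 in ES-derived secondary neurospheres, against 296 in the iPS-derived ones. The part of these differences in the results below was not tested.

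Few of the receptor subunits were detected outside the GE and pluripotent cell-derived neurospheres. A signal of 20 was used as the floor for a measurable level. The number of the 36 genes reaching 20 was 4 in fibroblasts, 2 in iPS cells and 1 in ES cells. It was 11 and 15 in iPS- and ES-derived primary neurospheres, 17 and 21 in the secondary ones, and 12 in GE neurospheres. In the fibroblast-derived neurospheres it was 4, 6, 6 and 6 for replicates 1 to 4. The fibroblast-derived arrays thus held counts of 4 to 6, below the 11 to 21 of the other neurospheres, with no overlap. Over all genes the share reaching 20 was similar on every array, from 52.8% in ES cells to 61.9% in embryonic replicate 4. In these bulk cultures, fewer expressing cells and less RNA per cell cannot be told apart.

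The genes reaching 20 on all 4 fibroblast-derived arrays were Gabra2, Gria3, Grik5 and Grm4. Fibroblasts reached it with Gria3, Gria4, Gabrb1 and Grin2d, iPS cells with Grik3 and Grm4, and ES cells with Grik3 alone. Glutamate subunits outnumbered GABA subunits on each array, for example 11 to 1 in GE neurospheres, although the ES-derived secondary neurospheres held 14 and 7. At a signal of 100 the secondary neurospheres had 8 and 11 genes, GE neurospheres 8 and primary neurospheres 3 and 3. Each fibroblast-derived array had 0 or 1. Over all genes the share reaching 100 ran from 32.0% in ES cells to 38.8% in embryonic replicate 4.

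**Figure D1:**
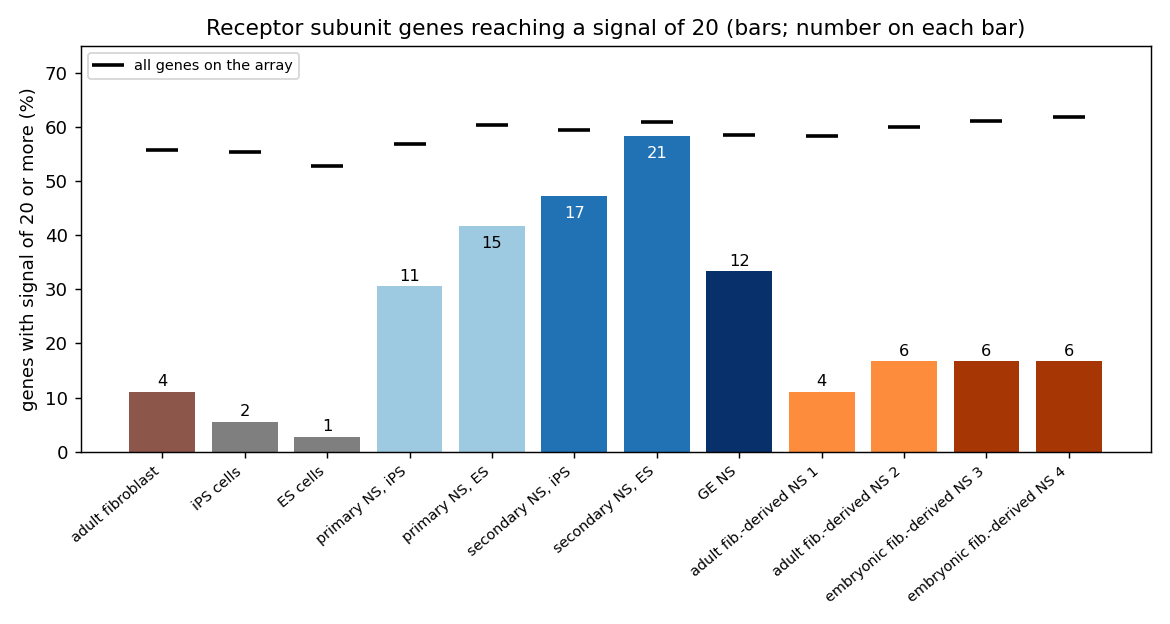
Bars show the percentage of the 36 receptor subunit genes with a signal of 20 or more on each array (NS, neurospheres), with their number on the bar, and black lines show the same percentage over all 18194 genes. The black lines stay between 52.8% and 61.9%, while the bars run from 1 gene in ES cells to 21 in ES-derived secondary neurospheres.

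For testing, a gene had to reach 20 on at least 1 array, which 25 of the 36 subunits did, as did 13628 of all genes. The 11 subunits never reaching it were Grik1, Grin2a, Grin2c, Grin3b, Grm8, Gabra6, Gabrd, Gabre, Gabrq, Gabrr1 and Gabrr2. They include both rho subunits measured, which are best known from the retina, and had signals of 0.2 to 18.6. By class, 4 of 4 AMPA, 4 of 5 kainate, 3 of 6 NMDA and 5 of 6 metabotropic genes were tested, as were 4 of 5 alpha, 2 of 2 beta, 2 of 2 gamma and 1 of 4 other GABA-A genes. Differences are given on the scale of log2(signal + 5) with their standard error, which understates changes of dim genes. They come from limma's moderated test, with p-values adjusted over the 13628 genes and calls made at 0.05. Of the 25 tested subunits, 21 differed among the 7 groups, 14 for glutamate and 7 for GABA (61.7% of all genes passed this test). Gabra4, Gabrg3, Grik4 and Grin2d did not pass it.

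**Figure D2:**
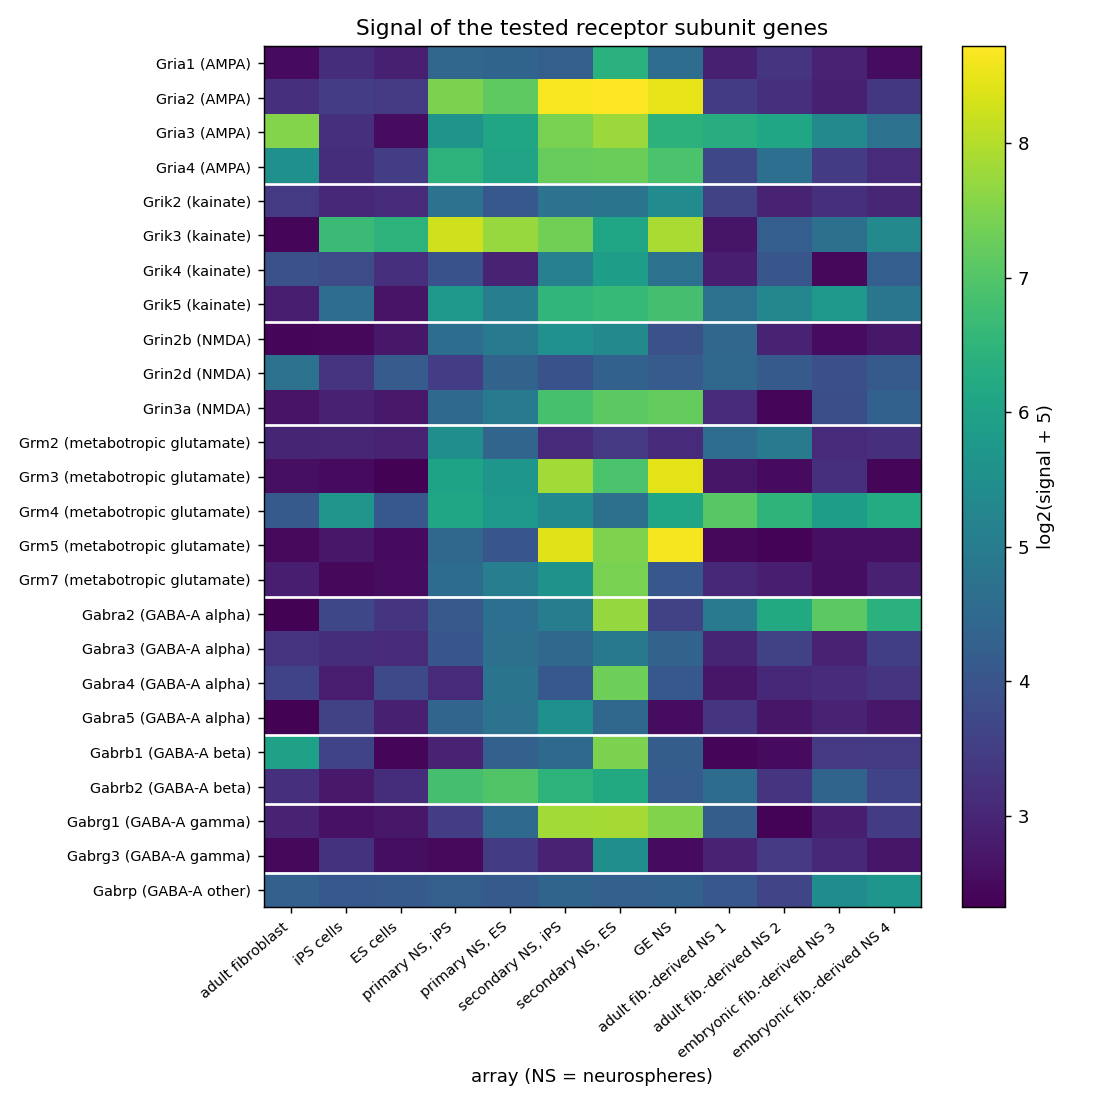
Colour shows log2(signal + 5) of the 25 tested subunit genes (rows, by receptor class) on the 12 arrays (columns). Gria2, Grm3, Grm5, Grin3a and Gabrg1 are bright in secondary and GE neurospheres and dark in the 4 fibroblast-derived arrays, while Gabra2 and Grm4 are bright in the latter.

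The fibroblast-derived neurospheres had lower levels than secondary neurospheres for most subunits. Against the secondary neurospheres, 19 of 25 subunits were called (33.7% of all genes), of which 18 were lower (16.7% of all genes) and 1, Grm4, was higher (17% of all genes). The median difference of the 25 subunits was -2.29, against 0.05 over all genes. Most of the 25, among them Gria2, Grm3 and Grm5, reached 20 only on primary, secondary or GE arrays. The filter therefore favoured genes that are lower in fibroblast-derived neurospheres. The directions and medians, here and against GE neurospheres, are thus not a test of the family. Without the ES-derived secondary array, 13 subunits were called. Against GE neurospheres 8 subunits were called (28.5% of all genes), all lower (12.8% of all genes), and 0 were higher (15.7%), with a median of -1.21 against 0.07. All 8, namely Gria2, Gria4, Grik2, Grik3, Grin3a, Grm3, Grm5 and Gabrg1, were also among the 18 lower than secondary neurospheres, both comparisons sharing the fibroblast-derived arrays. The arrays of the sides did not overlap for any subunit called here, as for 56.2% and 73.7% of all genes in these comparisons.

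Adult fibroblasts and pluripotent cells were the other references. Relative to adult fibroblasts, Gabra2, Grik5 and Grm4 were higher and Gria3 and Gria4 lower, 5 of 25 subunits (23.3% of all genes, 15% higher and 8.24% lower). Without embryonic replicate 4 this count was 3, and with a pseudocount of 20 Gabra2 and Grik5 were not called (2.15, adjusted p = 0.0591, and 1.2, adjusted p = 0.0614). Relative to pluripotent cells, Gria3, Gabra2 and Grm4 were higher and Grik3 was lower, 4 of 25 (30.2% of all genes, 20.4% higher and 9.79% lower). No called subunit overlapped between the sides, as for 72.1% of all genes against fibroblasts and 49% against pluripotent cells. That count of 4 fell to 1 without the ES cell array and to 2 without embryonic replicate 3. The median differences were 0.29 and 0.35, against 0.22 and 0.16 over all genes. Setting the median of each array equal, instead of the trimmed mean, moved the median of all genes by -0.42 and -0.35 in these comparisons.

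Primary neurospheres had gained subunits relative to their pluripotent cells. Of 25 subunits 11 rose (19.3% of all genes) and 0 fell (10.9%; 30.2% changed either way), with a median of 1.38 against 0.05. Of the 25, only Grik3 and Grm4 reached 20 on a pluripotent array, so the others had little room to fall. Most entered the tests through neurosphere arrays, so the share of all genes is not a like comparison. Without the iPS-derived primary array 6 were called. From primary to secondary neurospheres 4 rose, Grm5, Gabrg1, Grin3a and Gria3 (2% of all genes), and 0 fell (0.792%; 2.79% changed either way). Grm5 and Gabrg1 entered the tests through secondary and GE arrays only. The arrays of the called subunits did not overlap, as for 64.5% of all genes between primary and pluripotent arrays and 50.1% between secondary and primary ones. The median there was 1.18, against -0.01 over all genes. That count fell to 1 without the iPS-derived primary or the ES-derived secondary array, and to 2 without the iPS-derived secondary array. Fitted on the compared groups alone, none of the 4 passed (adjusted p 0.0831 to 0.126), and with a pseudocount of 1 only Grm5 did (0.0824 to 0.110 for the others). Setting the medians equal moved the median of all genes by -0.31 here and by -0.17 for primary against pluripotent cells.

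Gria2 encodes the AMPA subunit that, after editing of its RNA, keeps calcium from passing through the channel. The stretch around its start in RefSeq (GRCm38.p6, minus strand, chr3:80802786-80803085, from 250 bases before the start to 50 after it) is shown because the gene had the smallest adjusted p of the family against both secondary and GE neurospheres. Capitals mark a match on the other strand to the letters AGCACC, any 2 bases and GGACAG, part of the RE1 element to which the neuron-restrictive repressor REST binds.
Gria2: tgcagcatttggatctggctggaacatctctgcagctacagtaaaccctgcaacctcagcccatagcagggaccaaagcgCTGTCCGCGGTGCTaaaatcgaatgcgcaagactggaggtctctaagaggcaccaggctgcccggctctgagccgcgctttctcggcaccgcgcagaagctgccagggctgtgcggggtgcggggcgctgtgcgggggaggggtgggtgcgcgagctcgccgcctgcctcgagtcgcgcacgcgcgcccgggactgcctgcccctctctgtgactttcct
The match lies 170 to 157 bases before the start. The pattern, searched on both strands and chosen after the sequence was seen, occurred in 0.05% of 32851 promoter windows of 300 bases, while AGCACC alone occurred in 16.17% and GGACAG alone in 22.18%. It occurred in 1 of the 34 windows of the 27 subunit genes that the table held, that of Gria2. A match describes letters only, and binding was not measured.

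Gria2 signals were 396 and 418 in iPS- and ES-derived secondary neurospheres and 361 in GE neurospheres. They were 171 and 136 in the primary neurospheres, 6.2 and 5.6 in iPS and ES cells, and 4.3 in fibroblasts. The fibroblast-derived replicates 1 to 4 gave 5.8, 4.3, 2.4 and 5.3. Gria2 was thus high on the neural arrays and under the floor on all others, with a wide gap between them. The fibroblast-derived mean of 4.45 ± 1.5 (SD, n = 4) differed from that of secondary neurospheres, 407 ± 15.1 (SD, n = 2), by -5.46 ± 0.26 (limma adjusted p = 1.75e-05). Against GE neurospheres the difference was -5.29 ± 0.34 (adjusted p = 8.69e-05), and primary neurospheres lay 3.85 ± 0.30 over pluripotent cells (adjusted p = 0.000216). The further rise to secondary neurospheres, 1.39, had an adjusted p of 0.0502, and of 0.0453 with the line (iPS or ES) as a block.

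Gria3 and Gria4 were the AMPA subunits also seen in fibroblasts. Gria3 signals were 180 in fibroblasts, 4.2 and 0.8 in iPS and ES cells, and 74.5, 63, 35.3 and 21.7 in fibroblast-derived replicates 1 to 4. They were 45 and 62.7 in primary, 168 and 214 in secondary and 81.6 in GE neurospheres. The fibroblast-derived level therefore lay between those of the fibroblasts and of the pluripotent cells, overlapping neither, and spanned the primary neurosphere arrays. It differed from fibroblasts by -1.91 ± 0.40 (limma adjusted p = 0.0113), and 2.75 ± 0.31 over pluripotent cells (adjusted p = 0.000684). Against secondary neurospheres it was -1.98 ± 0.31 (adjusted p = 0.002), and against GE neurospheres -0.82 with an adjusted p of 0.160. The rise of Gria3 from primary to secondary neurospheres, 1.74 ± 0.36 (adjusted p = 0.0441), missed the threshold without any one of the 4 arrays (adjusted p 0.0735 to 0.276) and with equal medians (adjusted p = 0.0524).

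Gria4 gave 41.3 in fibroblasts and 8, 20.1, 6 and 3.5 in fibroblast-derived replicates 1 to 4, against 146 and 150 in secondary and 116 in GE neurospheres. The pluripotent arrays read 3.9 and 6.2 and the primary neurospheres 82.7 and 61.3. The fibroblast-derived arrays were below every other array but the pluripotent ones. Its difference from secondary neurospheres was -3.54 ± 0.33 (limma adjusted p = 0.000191), and that from GE neurospheres was -3.20 ± 0.43 (adjusted p = 0.0012). Its difference from fibroblasts, -1.81 ± 0.43 (adjusted p = 0.0184), was not shared by a further Gria4 probe set, which gave 0.18 (adjusted p = 0.825), and the mean of the probe sets gave -0.46 (adjusted p = 0.303).

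Gria1 was 80.2 in ES-derived and 14.3 in iPS-derived secondary neurospheres, 16.6 and 15.8 in primary and 19.5 in GE neurospheres. It was 0.7 in fibroblasts, 4 and 2.4 in iPS and ES cells and 2.4, 5, 2.7 and 0.8 in fibroblast-derived replicates 1 to 4. The ES-derived secondary array alone passed 20. Gria1 was called only against secondary neurospheres, at -2.42 ± 0.54 (limma adjusted p = 0.00989), and not without the ES-derived array (-1.35, adjusted p = 0.0557).

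**Figure D3:**
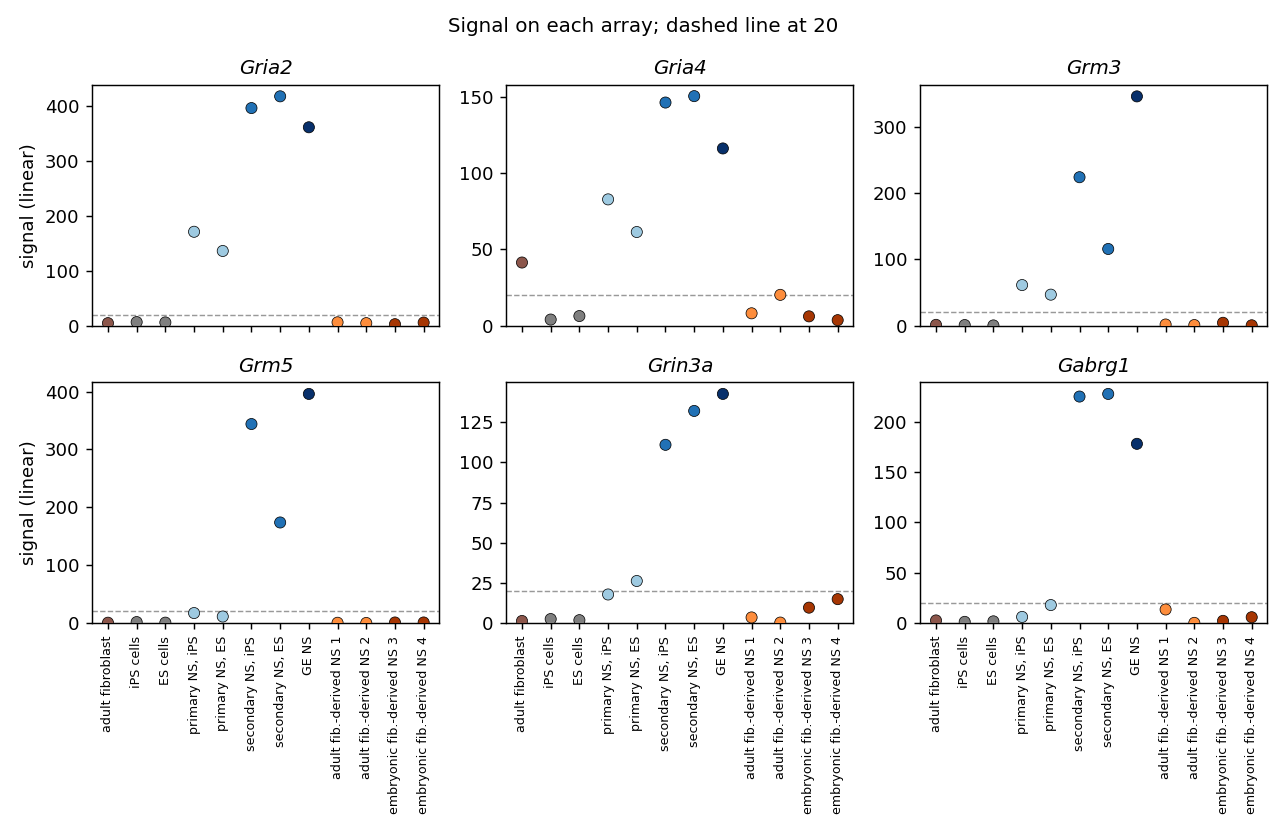
Each point is the linear signal of a gene on 1 array (NS, neurospheres), with the dashed line at 20. Gria2, Gria4, Grm3, Grm5, Grin3a and Gabrg1 lie far above 20 in secondary and GE neurospheres, and at or near it or below on the 4 fibroblast-derived arrays, where the highest point is Gria4 at 20.1.

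Kainate receptors need Grik1, Grik2 or Grik3 to bind glutamate with low affinity, and Grik4 or Grik5 join them as high-affinity partners. Grik3 was the subunit present in pluripotent cells, at 98.5 and 82.5 in iPS and ES cells. It read 304 and 209 in primary, 158 and 63.7 in secondary and 236 in GE neurospheres, and 0.3 in fibroblasts. The fibroblast-derived replicates gave 1.4 and 13.9 (adult) and 20.7 and 35.2 (embryonic). All of these lay under the pluripotent and neural arrays and above the fibroblast array. Grik3 was -2.34 ± 0.50 from pluripotent cells (limma adjusted p = 0.0106), -3.68 ± 0.65 from GE neurospheres (adjusted p = 0.00415) and -2.49 ± 0.50 from secondary neurospheres (adjusted p = 0.00642). The first difference had an adjusted p of 0.0511 without the ES cell array, and the last 0.0677 without the iPS-derived secondary array. The adult minus embryonic difference of -1.55 did not pass the test (adjusted p = 0.353).

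Grik5 was 2.2 in fibroblasts and 21.6, 34.1, 48.7 and 23.3 in fibroblast-derived replicates 1 to 4. It read 19.6 and 1.3 in iPS and ES cells, 48 and 28.1 in primary, 87.5 and 92 in secondary and 108 in GE neurospheres. The fibroblast-derived values overlapped those of primary neurospheres and lay under the secondary and GE arrays. The gain over fibroblasts, 2.30 ± 0.70 (limma adjusted p = 0.0446), missed the threshold without any one of the 4 fibroblast-derived arrays (adjusted p 0.0571 to 0.102), with quantile normalization (0.0732), with equal medians (0.0651) and with no filter (0.0562). With the line as a block, Grik5 was also called against pluripotent cells (1.51, adjusted p = 0.0358 from 0.0651) and secondary neurospheres (-1.42, 0.0414 from 0.0736), and in primary against pluripotent cells (1.75, 0.0353 from 0.0634).

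Grik2 and Grik4 stayed dim. Grik2 was 37.3 in GE, 22.2 and 22.7 in secondary and 22.2 and 12 in primary neurospheres. It was 6.7, 2.6, 4.1 and 3.1 in fibroblast-derived replicates 1 to 4, 5.7 in fibroblasts and 3.4 and 3.8 in iPS and ES cells, so no array outside the neural series reached 12. The fibroblast-derived level differed from GE neurospheres by -2.23 ± 0.42 (limma adjusted p = 0.00548), and its difference from secondary neurospheres was -1.61 ± 0.32 (adjusted p = 0.00642). Its rise in primary neurospheres, 1.32 ± 0.37 (adjusted p = 0.0299), was not called without either pluripotent array or the iPS-derived primary array (adjusted p 0.0788 to 0.189), with the mean of the probe sets (0.98, 0.0676) or with only the groups compared in the fit (0.0963). Grik4 was 29.3 and 54.7 in secondary and 21.2 in GE neurospheres, 10.3 and 2.6 in primary ones, and 2.3, 11.4, 0.5 and 13.8 in fibroblast-derived replicates 1 to 4. Fibroblasts read 9.9 and iPS and ES cells 8.9 and 4.1, leaving the secondary and GE arrays alone above 20. Its difference from secondary neurospheres, -2.10 ± 0.59 (adjusted p = 0.0261), was lost without either secondary array, adult replicate 1 or embryonic replicate 3 (adjusted p 0.0600 to 0.168) and with a pseudocount of 1 (0.0540).

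Among NMDA subunits, Grin3a, a glycine-binding subunit that lowers calcium flow, followed the neural series. It was 111 and 132 in secondary and 143 in GE neurospheres, 17.8 and 26.2 in primary ones, 1.3 in fibroblasts and 2.5 and 1.8 in iPS and ES cells. The fibroblast-derived arrays, at 3.5, 0.3, 9.6 and 14.9, lay under each neurosphere array of the other kinds. The differences were -3.56 ± 0.32 from secondary (limma adjusted p = 0.000153) and -3.79 ± 0.41 from GE neurospheres (adjusted p = 0.000529). Grin3a rose by 1.90 ± 0.37 into primary neurospheres (adjusted p = 0.00698) and by 2.24 ± 0.37 from there to secondary ones (adjusted p = 0.0224). The last call was lost without the iPS-derived primary or either secondary array (adjusted p 0.0651 to 0.164).

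Grin2b, the glutamate-binding subunit typical of developing brain, was low throughout. It was 42.3 and 35.6 in secondary, 20 and 26 in primary and 10.1 in GE neurospheres, and 16.6, 2.6, 0.8 and 1.7 in fibroblast-derived replicates 1 to 4. Fibroblasts were at 0.3 and iPS and ES cells at 0.5 and 1.7. The GE and fibroblast-derived arrays overlapped, and the secondary arrays lay above both. Grin2b differed by -2.29 ± 0.42 from secondary neurospheres (limma adjusted p = 0.00426) and rose by 2.20 ± 0.49 in primary neurospheres (adjusted p = 0.0119). That rise was not called without the iPS-derived primary array (0.0514) or with the mean of the probe sets (1.03, adjusted p = 0.0750). Grin2d reached 20 in fibroblasts only, at 21, and passed no test.

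Among the metabotropic receptors, Grm5 had the largest difference from GE neurospheres of all 25 subunits on the chosen probe sets. Grm4 was high in the fibroblast-derived neurospheres. Grm5, which couples to calcium release and is found on progenitors and young astrocytes, was 344 and 174 in secondary and 396 in GE neurospheres. It was 17.3 and 11.3 in primary neurospheres, 0.6 in fibroblasts and 1.7 and 0.7 in iPS and ES cells. Its fibroblast-derived values, 0.5, 0.2, 1 and 1, averaged 0.675 ± 0.395 (SD, n = 4). The groups were fully apart, at -5.46 ± 0.34 from secondary (limma adjusted p = 4.73e-05) and -6.15 ± 0.44 from GE neurospheres (adjusted p = 0.000135). Grm5 rose by 1.63 ± 0.39 into primary neurospheres (adjusted p = 0.0162; 0.0685 and 0.108 without the ES cell or the iPS-derived primary array, and 0.100 with a pseudocount of 20). From primary to secondary neurospheres it rose by 3.71 ± 0.39 (adjusted p = 0.00593). Another Grm5 probe set read 128 in GE and 259 and 244 in secondary neurospheres. On it the fibroblast-derived level differed by -4.32 from GE and by -5.27 from secondary neurospheres.

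Grm3, a receptor that lowers cAMP and is prominent in astrocytes and their precursors, was highest in GE, then secondary, then primary neurospheres. It was 224 and 116 in secondary, 346 in GE and 61.1 and 46.6 in primary neurospheres, and 1.5, 0.7, 4.1 and 0.3 in fibroblast-derived replicates 1 to 4. Fibroblasts were at 1 and iPS and ES cells at 0.7 and 0.1, so no array outside the neural series came near it. The differences were -4.68 ± 0.36 from secondary (limma adjusted p = 9.09e-05) and -5.75 ± 0.47 from GE neurospheres (adjusted p = 0.000222), and primary neurospheres gained 3.44 ± 0.42 (adjusted p = 0.000934).

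Grm4, which also lowers cAMP and acts at presynaptic terminals, went the other way. It was 130 and 85.2 in the adult-derived and 54 and 71.6 in the embryonic-derived neurospheres, against 12.7 in fibroblasts, 45.2 and 11.9 in iPS and ES cells, and 37 and 20.7 in secondary neurospheres. GE and iPS-derived primary neurospheres, at 63.2 and 62.8, lay inside the fibroblast-derived range and ES-derived primary neurospheres, at 48.7, just under it. The difference from GE was 0.34 (limma adjusted p = 0.699). Grm4 was higher than in fibroblasts by 2.28 ± 0.58 (adjusted p = 0.0237), a call lost without adult replicate 1 or embryonic replicate 4 (0.0535 and 0.0609). It was higher than in pluripotent cells by 1.56 ± 0.45 (adjusted p = 0.0303). That call was lost without the ES cell array (0.78, adjusted p = 0.222), without adult replicate 1 or either embryonic replicate (0.0622 to 0.0865), with quantile normalization (0.0773) and with equal medians (0.0583). The difference of 1.39 ± 0.45 from secondary neurospheres (adjusted p = 0.043) was lost without any one of the 6 arrays compared (0.0598 to 0.252), with a pseudocount of 1 (0.0540) and with no filter (0.0553).

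Grm7, a presynaptic receptor of the same group, was 168 in ES-derived and 43.6 in iPS-derived secondary neurospheres, 18.8 and 28.6 in primary, 11.6 in GE neurospheres and 3.2, 2.3, 0.9 and 2.5 in fibroblast-derived replicates 1 to 4. Fibroblasts were at 2.3 and iPS and ES cells at 0.5 and 0.8, and the GE array lay nearer to these than to the ES-derived secondary one. Grm7 was -3.68 ± 0.48 from secondary neurospheres (limma adjusted p = 0.000847). Its rise of 2.32 ± 0.55 in primary neurospheres (adjusted p = 0.0158) was lost without any one of the 4 arrays compared (0.0501 to 0.0583), with a pseudocount of 20 (0.0841) and with the mean of the probe sets (0.52, adjusted p = 0.343). Grm2, a close relative of Grm3, was 40.7 and 16.1 in primary neurospheres, 3 and 2.7 in iPS and ES cells, 3.5 and 5.5 in secondary and 3.6 in GE neurospheres. It was 19.3 and 25.8 in the adult-derived and 3.5 and 4.2 in the embryonic-derived neurospheres, and 2.9 in fibroblasts. Only the primary and the adult-derived arrays thus came near or over 20. It rose in primary neurospheres by 1.98 ± 0.42 (adjusted p = 0.00971; 0.0699 without the iPS-derived array and 0.0598 with only the groups compared in the fit).

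The GABA-A subunits were fewer and more uneven. Gabrb2 led in primary neurospheres, at 109 and 121, followed by 82.3 and 69.3 in secondary neurospheres, while GE neurospheres had 13.3 and the fibroblast-derived ones 18.9, 4.7, 15.8 and 7.2. Fibroblasts were at 4.1 and pluripotent cells at 1.8 and 3.9, so the primary and secondary arrays stood above all others. Gabrb2 rose by 3.95 ± 0.47 into primary neurospheres (limma adjusted p = 0.000858), and its fibroblast-derived level differed from secondary neurospheres by -2.37 ± 0.41 (adjusted p = 0.00321). The secondary and GE arrays were apart by 2.14, which did not pass (adjusted p = 0.0848).

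Gabrg1, Gabra2, Gabra4 and Gabrb1 follow each other on chromosome 5 in the order of the RefSeq table, with Cox7b2 between Gabra2 and Gabra4. Their starts are shown because the 4 neighbours did not all share a profile over the same arrays. Gabra4 and Gabrb1 were alike in the neurospheres, both high in the ES-derived secondary array alone. Each window runs from 250 bases before to 50 after a RefSeq start (GRCm38.p6), 5' to 3' on the gene's strand, with CG dinucleotides, the usual sites of DNA methylation, in capitals. The windows are chr5:70842568-70842867 (Gabrg1, minus), chr5:71095800-71096099 (Gabra2, minus), chr5:71658259-71658558 (Gabra4, minus) and chr5:71657671-71657970 (Gabrb1, plus, the first of its 2 starts).
Gabrg1: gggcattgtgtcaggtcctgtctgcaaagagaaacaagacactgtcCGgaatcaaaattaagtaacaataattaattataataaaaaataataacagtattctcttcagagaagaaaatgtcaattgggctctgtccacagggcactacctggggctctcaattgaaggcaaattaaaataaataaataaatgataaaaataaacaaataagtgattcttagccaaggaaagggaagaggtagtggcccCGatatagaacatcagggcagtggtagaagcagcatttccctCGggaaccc
Gabra2: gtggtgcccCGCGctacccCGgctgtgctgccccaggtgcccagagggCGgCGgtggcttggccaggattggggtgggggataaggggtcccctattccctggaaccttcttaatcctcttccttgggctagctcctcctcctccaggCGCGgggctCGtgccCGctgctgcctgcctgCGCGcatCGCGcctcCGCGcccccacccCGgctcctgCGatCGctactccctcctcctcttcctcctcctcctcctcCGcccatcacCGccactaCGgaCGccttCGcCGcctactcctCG
Gabra4: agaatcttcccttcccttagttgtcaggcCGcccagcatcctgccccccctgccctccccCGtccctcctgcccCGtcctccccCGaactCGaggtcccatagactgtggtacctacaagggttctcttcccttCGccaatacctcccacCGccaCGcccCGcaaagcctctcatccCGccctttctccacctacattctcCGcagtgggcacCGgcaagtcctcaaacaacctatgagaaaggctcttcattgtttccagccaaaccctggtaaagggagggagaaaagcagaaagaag
Gabrb1: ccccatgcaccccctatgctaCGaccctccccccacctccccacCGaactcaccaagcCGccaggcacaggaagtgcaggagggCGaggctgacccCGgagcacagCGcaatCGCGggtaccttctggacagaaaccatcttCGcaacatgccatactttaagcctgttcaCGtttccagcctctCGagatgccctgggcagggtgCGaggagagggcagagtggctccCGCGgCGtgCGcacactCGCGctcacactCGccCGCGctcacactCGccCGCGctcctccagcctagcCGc
They hold 3, 25, 12 and 25 CG dinucleotides, against a median of 7 over all 32851 windows, and 38.3%, 70.0%, 58.7% and 66.0% G or C against a median of 52.7%. Gabra4 and Gabrb1 start 387 bases apart on opposite strands, each reading toward the start of the other. Methylation was not measured.

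Gabrg1, a gamma subunit, was 225 and 228 in secondary and 178 in GE neurospheres, 6.1 and 17.9 in primary ones, and 13.5, 0.2, 2.2 and 5.8 in fibroblast-derived replicates 1 to 4. It was at 2.6 in fibroblasts and 1.2 and 1.7 in iPS and ES cells. Only the secondary and GE arrays passed 20, with a wide gap to the next. The differences were -4.64 ± 0.52 from secondary (limma adjusted p = 0.00041) and -4.30 ± 0.67 from GE neurospheres (adjusted p = 0.00244), and the rise from primary to secondary neurospheres was 3.86 ± 0.60 (adjusted p = 0.0188). That rise was lost without the iPS-derived primary or either secondary array (0.0631 to 0.138).

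Gabra2, an alpha subunit, was the only GABA gene to reach 20 on every array of the fibroblast-derived neurospheres. It was 26.9 and 69 in the adult-derived and 133 and 79.4 in the embryonic-derived ones, 0.1 in fibroblasts and 8.1 and 4.8 in iPS and ES cells. GE neurospheres had 6.8, primary neurospheres 12.3 and 20.2, and iPS- and ES-derived secondary neurospheres 27.3 and 203. Another Gabra2 probe set read 11.3, 11.9, 49.6 and 28.3 in fibroblast-derived replicates 1 to 4 and 12.5 in ES-derived primary neurospheres. It differed by 2.25 from fibroblasts and 1.80 from pluripotent cells. A further one read 10.2 to 22.4 in fibroblast-derived neurospheres, and its differences, 1.66 and 1.18, were not called. On the chosen probe set, the fibroblast-derived arrays were above the fibroblast, pluripotent, primary and GE arrays, and the secondary arrays overlapped their range. The mean of 77.1 ± 43.7 (SD, n = 4) was 3.83 ± 0.89 over fibroblasts (limma adjusted p = 0.0171) and 2.68 ± 0.69 over pluripotent cells (adjusted p = 0.0204). The first difference was 1.64 with the mean of the gene's probe sets, and was not called with a pseudocount of 20. The second call was lost without either pluripotent array, adult replicate 2 or embryonic replicate 3 (0.0562 to 0.116). The difference of 2.62 from GE neurospheres had an adjusted p of 0.0569, and of 0.0397 with the line as a block.

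Gabra4 and Gabrb1 were high in the ES-derived secondary neurospheres alone among the neurospheres. Gabra4, an alpha subunit of extrasynaptic receptors, was 153 there and 11.9 in the iPS-derived ones, 3.5 and 22.4 in iPS- and ES-derived primary neurospheres and 11.9 in GE neurospheres. It was 1.5, 3.3, 3.8 and 4.9 in fibroblast-derived replicates 1 to 4, 7.3 in fibroblasts and 2.1 and 8.3 in iPS and ES cells. Gabrb1, a beta subunit, was 172 there and 17.7 in the iPS-derived ones, 2.6 and 14.5 in primary and 13.4 in GE neurospheres, 7.3 and 0.4 in iPS and ES cells, and 58.5 in fibroblasts. The fibroblast-derived replicates were at 0.4, 0.7, 5.5 and 5.7, under both secondary arrays. The fibroblast value of Gabrb1 rests on the chosen probe set, since 3 others of the gene read 6.7, 8.7 and 2 there. Their differences from secondary neurospheres, -2.64 ± 0.83 for Gabra4 (limma adjusted p = 0.0386) and -3.05 ± 0.77 for Gabrb1 (adjusted p = 0.0168), were not called without the ES-derived array (-1.03 at 0.310 and -1.57 at 0.124). Leaving out any one fibroblast-derived array also ended the Gabra4 call (0.0717 to 0.0876). Gabrb1 was called against fibroblasts with the line as a block (-3.05, adjusted p = 0.0391 from 0.0561).

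Of the genes beside them, Cox7b2 was at 2.2 to 17.8 and Commd8, beyond Gabrb1, at 222 to 360, the ES-derived secondary array being the highest for neither. Gnpda2, beside Gabrg1, was at 117 to 432, with 214 and 315 in iPS- and ES-derived secondary, 357 in GE and 117 and 129 in primary neurospheres. In all, 6 subunits were more than 1 log2 unit higher in the ES-derived than in the iPS-derived secondary array, namely Gabra4 (3.23), Gabrb1 (2.96), Gabra2 (2.69), Gabrg3 (2.57), Gria1 (2.14) and Grm7 (1.83), as were 6.67% of all genes. Grik3 (-1.25) and Gabra5 (-1.07) were lower by that much, as were 3.93% of all genes. These are single arrays with no replicate check. In the ES-derived array the neuron marker list summed to 2439, against 6083 in the iPS-derived one, with 11 of 11 markers reaching 20 in both. The fibroblast markers summed to 2495 with 6 of 6 at 20, against 296 with 5 of 6, and Col1a2, a collagen, was 1454 against 90.8. The pluripotency markers summed to 661 with 4 of 6 at 20, against 43.3 with 0 of 6. The part of these lists in the difference was not tested.

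**Figure D4:**
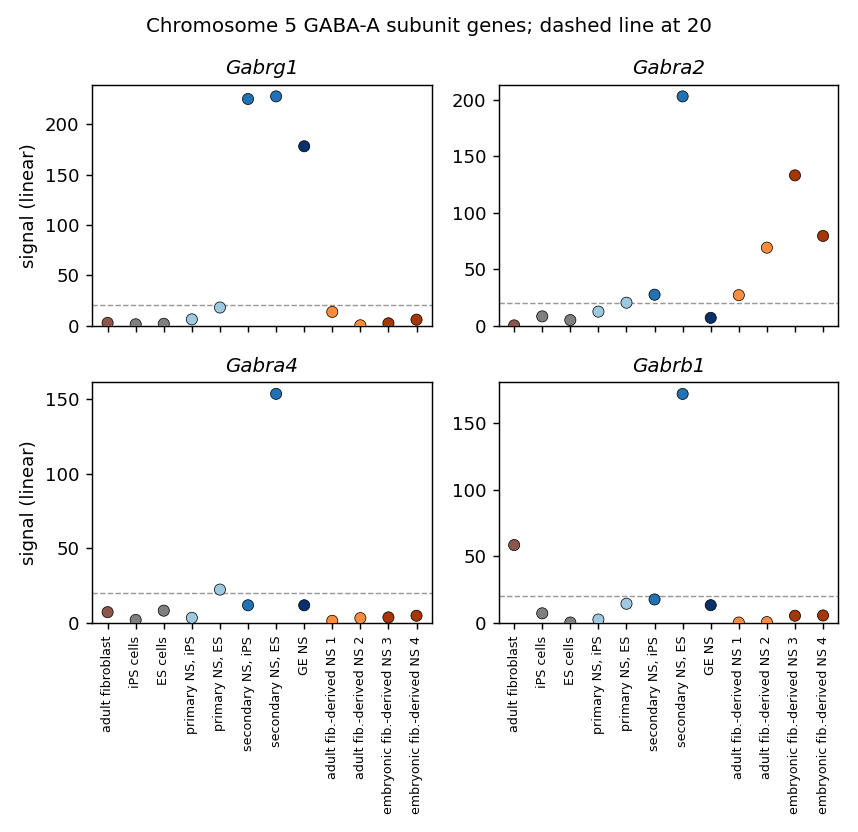
Each point is the linear signal of a gene of the chromosome 5 cluster on 1 array (NS, neurospheres), with the dashed line at 20. Gabrg1 is high in both secondary and the GE arrays, Gabra2 in the ES-derived secondary and the fibroblast-derived arrays, and Gabra4 and Gabrb1 in the ES-derived secondary array at 153 and 172.

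Gabra5, an alpha subunit of extrasynaptic receptors, was 41.5 and 17.1 in secondary, 16.4 and 22.1 in primary and 0.8 in GE neurospheres, and 4.7, 1.5, 2.8 and 1.7 in fibroblast-derived replicates 1 to 4. Fibroblasts were at 0.1 and iPS and ES cells at 6.9 and 2.4. Its fibroblast-derived arrays lay under both secondary arrays, at -2.08 ± 0.40 (limma adjusted p = 0.00533; 0.0531 without the iPS-derived array). Gabra3 was 17 and 25.1 in secondary, 11.4 and 20.6 in primary and 15.4 in GE neurospheres, and 2.8 to 7 on the remaining arrays, with no overlap between these sets. It differed from secondary neurospheres by -1.43 ± 0.35 (adjusted p = 0.0151; 0.111 without the ES-derived array). Both passed in primary against pluripotent cells with the line as a block only, Gabra3 at 1.21 (adjusted p = 0.0443) and Gabra5 at 1.36 (0.0440). Gabrg3 reached 40.7 in ES-derived secondary neurospheres, was at most 5.8 elsewhere and passed no test.

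Gabrp, the pi subunit, known mainly from tissues outside the brain such as uterus, was 38.4 and 46.2 in the embryonic-derived neurospheres. It was 11.8 and 7.6 in the adult-derived ones and 11.9 to 16 on the remaining arrays, so only the embryonic-derived arrays reached 20. The adult minus embryonic difference was -1.70 ± 0.31, which did not pass the test (limma adjusted p = 0.0705). Of 5 trophoblast markers, 3 and 4 reached 20 on the same embryonic-derived arrays, with sums of 2083 and 1975, against 0 and 3 and sums of 52.6 and 355 on the adult-derived ones. Tpbpa, a spongiotrophoblast gene, was 1325 and 687 in the former and 3.1 and 0.4 in the latter. Krt18 was 700 and 1222 against 18.8 and 270. The other markers did not separate the pairs in this way. Elf5 was 17.8 and 21.5 against 6.1 and 24, and Gata3 26.8 and 33.3 against 19.9 and 49.5. Cdx2 stayed under 20 on all these arrays. The part of trophoblast-like cells in the Gabrp signal was not tested.

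**Figure D5:**
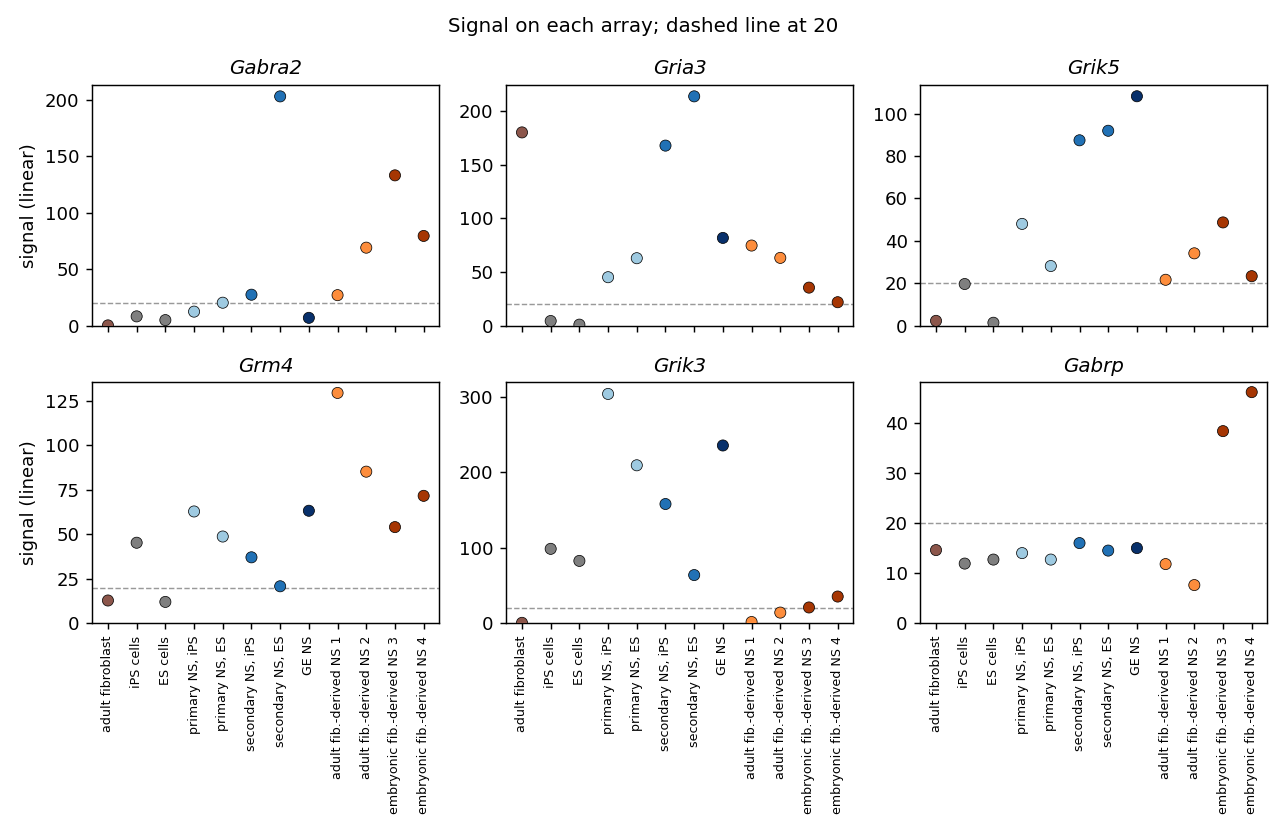
Each point is the linear signal of a gene on 1 array (NS, neurospheres), with the dashed line at 20. Gabra2, Gria3, Grik5 and Grm4 exceed 20 on all 4 fibroblast-derived arrays, Grik3 is high in the pluripotent cells and neural arrays, and Gabrp exceeds 20 only on the embryonic-derived arrays, at 38.4 and 46.2.

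The comparisons of secondary with GE neurospheres, of adult- with embryonic-derived neurospheres and of iPS with ES origin gave no called subunit. For secondary against GE neurospheres 0 of 25 were called by limma (3.9% of all genes), with 6 at an unadjusted p under 0.05 and the smallest adjusted p, 0.0522, for Gabra5 (2.47 ± 0.57). With the line as a block, Gabra5 (0.0419) and Grm7 (2.47, 0.0472) were called. Without the iPS-derived secondary array the called subunits were Gabra2 (4.14, 0.043) and Grm7 (3.38, 0.031). Adult against embryonic fibroblast-derived neurospheres gave 0 calls (0.47% of all genes) and 6 at an unadjusted p under 0.05. Between iPS and ES origin, with the stage as a term, 0 were called (0.00734% of all genes) and 2 had an unadjusted p under 0.05, with the smallest adjusted p, 0.272, for Gabra4 (-1.94).

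The media of the fibroblast-derived neurospheres could be set side by side only as single arrays. Adult replicate 2 (LIF) was more than 1 log2 unit over replicate 1 (EGF and cAMP) for Gabra2, Grik3 and Grik4 (8.01% of all genes) and under it by as much for Gabrb2, Gabrg1 and Grin2b (2.84%). Of these 6, Gabra2 alone exceeded 20 on both arrays, and Gabrb2, Gabrg1, Grin2b and the kainate pair stayed below 20 on both. In the embryonic pair, LIF with cAMP exceeded LIF alone for Grik4 only (2.18% of all genes), at 13.8 against 0.5, and 0 subunits were lower (1.94%).

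Partners of the receptors followed the subunits in part. Of 27 tested auxiliary and scaffold genes of glutamate receptors, 13 were lower (16.7% of all genes) and 0 higher (17%) in fibroblast-derived than in secondary neurospheres. Against GE neurospheres 8 were lower (12.8% of all genes) and 0 higher (15.7%), and in primary against pluripotent cells 15 rose (19.3%) and 0 fell (10.9%). Their medians were -1.07, -0.75 and 1.38, against 0.05, 0.07 and 0.05 over all genes. Cacng4, which escorts AMPA receptors to the membrane, was 1.1 to 12 on the fibroblast-derived arrays, against 337 and 277 in secondary and 146 in GE neurospheres (limma -5.24 ± 0.39 from secondary, adjusted p = 8.28e-05). Homer2, which tethers group I metabotropic receptors, was 64.6 to 154 in fibroblast-derived neurospheres and 1.1 in fibroblasts (4.24 ± 0.56, adjusted p = 0.00217). Of 11 scaffold and trafficking genes of GABA-A receptors, 5 were lower (16.7% of all genes) and 0 higher (17%) against secondary neurospheres, and 4 lower (12.8%) and 0 higher (15.7%) against GE neurospheres. The medians were -0.58 and -0.99, against 0.05 and 0.07 over all genes. Lhfpl4, which anchors GABA-A receptors at synapses, was 3.3 to 13.3 in fibroblast-derived neurospheres and 151 and 94.4 in secondary ones (-3.46 ± 0.40, adjusted p = 0.000472).

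The transporters did not all move one way. Of 5 tested glutamate transporters, 4 were lower and 1 higher in fibroblast-derived than in GE neurospheres (12.8% and 15.7% of all genes), and also than in secondary neurospheres (16.7% and 17%). One of the 4, Slc1a6, entered the tests through fibroblasts (80.3) and was at most 11.3 in GE and secondary neurospheres, under the floor of 20. Slc1a1 and Slc1a2 reached 20 only on primary, secondary or GE arrays. Slc1a2, the main astrocytic uptake carrier, was 7.3 to 13.9 on the fibroblast-derived arrays and 1455 in GE neurospheres (limma -6.63 ± 0.53, adjusted p = 0.000203). The exception was Slc17a6, which loads glutamate into synaptic vesicles of neurons. It was 100, 246, 103 and 27.6 in fibroblast-derived replicates 1 to 4, 115 and 107 in primary, 40.7 and 6.9 in secondary and 0.3 in GE neurospheres, and 3.8 in fibroblasts. Slc17a6 was 4.21 ± 0.86 over GE neurospheres (adjusted p = 0.00804) and 3.48 ± 0.86 over fibroblasts (adjusted p = 0.0216). Both tested GABA transporters were lower than in secondary neurospheres, among them Slc6a11, a glial carrier, at 0.5 to 2 against 398 and 408 (-6.04 ± 0.26, adjusted p = 1.33e-05). Neither reached 20 outside the primary, secondary and GE arrays.

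Of 8 tested enzymes of transmitter synthesis and breakdown, 5 were lower (16.7% of all genes) and 1, Got1, higher (17%) in fibroblast-derived than in secondary neurospheres. Gad1, which makes GABA, was 1.6 to 36.1 against 130 and 169 (limma -2.98 ± 0.52, adjusted p = 0.00341). GABA-B and related receptors had 3 tested genes, of which Gabbr1, a GABA-B subunit, was higher than in fibroblasts by 1.86 ± 0.34 (adjusted p = 0.00705) and differed by -1.30 ± 0.34 from GE neurospheres (adjusted p = 0.0222). Of 10 glycine and nicotinic receptor subunits, 1 was higher and 2 lower in fibroblast-derived than in secondary neurospheres, near the share of all genes called there (33.7%), while 7 rose (19.3% of all genes) and 1 fell (10.9%) in primary against pluripotent cells.

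Cell type markers moved only in part with the subunits over the same arrays. Of 7 oligodendrocyte-lineage markers, 7 reached 20 in secondary and GE neurospheres, with sums of 7631, 5246 and 13209, against 3 in each primary array, with sums of 221 and 173. Between 3 and 5 reached it in fibroblast-derived neurospheres, with sums of 172 to 778, and Sox10 and Gpr17 were at or under 6.1 on those arrays. Of 11 neuron markers, 11 reached 20 in primary and secondary neurospheres, with sums of 2439 to 17056. In GE neurospheres 8 did, with a sum of 2307, and in fibroblast-derived ones 8 or 9, with sums of 962 to 2540. In iPS and ES cells 6 and 7 did, with sums of 1946 and 3082. Stmn2 was the largest part of the sum there (1506 and 2276) and in fibroblast-derived neurospheres (545 to 1368). Dcx was 6.2 to 43.8 and Syp 10.5 to 15.5 in the latter. Primary and secondary neurospheres had 216 to 1908 and 32.3 to 67.8 for these genes. Of 6 astrocyte markers, 3 and 4 reached 20 in primary, 5 and 5 in secondary and 6 in GE neurospheres, with sums of 974 and 2901, 4408 and 6448, and 13188. In fibroblast-derived neurospheres 1 to 3 did, with sums of 2773 to 2938. Gja1 alone was 2668 to 2871 on these arrays, while Gfap, Aqp4 and S100b stayed under 20. Grm5, Gabrg1, Grin3a and Gria3 rose from primary to secondary neurospheres, and so did the oligodendrocyte-lineage and astrocyte sums. Of the astrocyte markers, Sparcl1 was 423 and 402 in primary and 3089 and 3933 in secondary neurospheres, and Gfap at most 3 on these arrays. The neuron sums were 17056 and 6849 in primary and 6083 and 2439 in secondary neurospheres. What share of a subunit's signal came from which cell type was not tested.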

How the data were processed

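The authors deposited linear signal intensities. Per the submitters' processing notes these were made with MAS5 (version not given in the sources used here) and with Affymetrix Expression Console 1.1. The 2%-trimmed mean was 100 on each of the 12 arrays, which hides changes in total RNA. MAS5 values near background are imprecise, and no detection call entered the work. Arrays have no read depth, and their small number limits the precision.

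The deposited intensity was turned into log2(signal + 5). GEO's platform annotation gave 34945 probe sets 1 symbol, 932 several and 9160 none, beside 64 controls. All 36 symbols stood in the RefSeq table of GRCm38.p6, from which promoter windows and gene order were taken. Genes below 20 on all arrays were left out. limma 3.58.1 in R 4.3.3 (lmFit, eBayes with trend) fitted 12 arrays in 7 groups, with Benjamini-Hochberg adjustment over 13628 genes. The fibroblast-derived side was the mean of the adult and embryonic pairs with equal weight, and iPS against ES origin was fitted on 6 arrays with a term for stage. On data simulated for fibroblast-derived neurospheres against pluripotent cells (13628 genes), 14% of log2 changes of 1 were recovered, 80% of 2, 96% of 3 and 100% of 5. Only 50 genes were changed at each size, while 4120 were called in the data, so these shares do not carry over directly. Comparisons with the single GE or fibroblast array were not simulated.

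Replicates 1 and 2 of the pluripotent, primary and secondary groups are the iPS and the ES line, so the numbers pair them. Deviations from the group means correlated at 0.252 (pluripotent and primary), 0.0582 (pluripotent and secondary) and 0.425 (primary and secondary). The fit reported has no block, and one with the line as a block is given where it changes a call. Subunits reaching 100 on an array, or called in a comparison, were named with their values. The members, lists and tests were chosen with earlier results of these data known. Alternatives covered the pseudocount, filter, scaling, probe set choice, trend, block, samples fitted and each array left out.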

Additional observations from a re-analysis of the deposited data

Results flagged for a closer look

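In the line-matched arrays Gabra5, an alpha subunit, and Gria1, an AMPA subunit, moved in opposite directions from primary to secondary neurospheres. Gabra5 changed by -0.29 log2 units in the ES line and by 1.12 in the iPS line. Gria1 changed by 2.03 in the ES line and by -0.16 in the iPS line. Each line has 1 array a stage, and neither difference was tested.

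Gabrp, the pi subunit, lay -0.43 from adult fibroblasts in the adult-derived and 1.27 in the embryonic-derived neurospheres, each pair on its own side. The limma test of the adult against the embryonic pair gave an adjusted p of 0.0705.

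A probe set naming both 6330406O05Rik and Gabrg3, outside the single-symbol rule, had a signal of 39.8 in ES-derived secondary neurospheres, where Gabrg3 also had its highest value, and at most 6.7 on the other arrays. No labelled group held 4 arrays, and no array was tested for standing apart within its group.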

How the results depend on the processing

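No direction of a named call reversed: of 801 repeats of the 51 calls, 718 stayed past the threshold and 83 did not, and all 51 held with the replicate block (the line as a term). Of 163 repeats of the counts, 142 stayed within 1.5 times. The calls of secondary against primary neurospheres, 4 in the report, numbered 1 with a pseudocount of 1, and 0 when only the groups compared were fitted, and ranged from 1 to 4 with arrays left out. Secondary against GE neurospheres, 0 in the report, gave 1 with a pseudocount of 20, with no filter, with the mean of the probe sets or without a trend, 2 with the replicate block, and 0 to 2 with arrays left out. Fibroblast-derived neurospheres against fibroblasts gave 3 with a pseudocount of 20 (3 to 4 with arrays left out), and adult against embryonic gave 1 with a pseudocount of 20 or without a trend (0 with arrays left out). Any difference among groups was called for 13 of the genes passing a filter at 100, where fewer were tested, and for 15 to 21 with arrays left out. Left-out ranges were 1 to 4 against pluripotent cells, 13 to 17 against secondary and 8 against GE neurospheres, 6 to 11 for primary against pluripotent cells and 0 for iPS against ES origin. The median number of subunits measurable on an array, 6 at a signal of 20, was 10 at 10 and 2.5 at 50. Other causes were not tested. Of the 38 other probe sets of these genes, 19 reached the filter. They bear on 32 of the 51 calls, over 12 genes, and had the sign of the call throughout in 31, the exception being Gria4 against fibroblasts. Signs held, but sizes moved with the pseudocount and with the mean of the probe sets, Gabra2 against fibroblasts from 1.64 to 5.94. Signals near 20 are close to background noise, so dim subunits are less certain.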
